A study of Mus musculus with 9 samples.

Results

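The 9 libraries were made from whole mouse eyeballs, and in 5 of them lens genes took a far larger share of the reads than in the other 4. The members of each class were chosen by a measured value, the share of reads that came from 6 crystallin genes (Cryaa, Cryab, Cryba4, Crybb1, Crybb3 and Crygn): a share of 1% or more made a library lens-rich, and the remaining libraries were lens-poor. The lens-rich libraries were DES 1, DES 3 and T.chuii 1, 2 and 3. The lens-poor libraries were CON 1, 2 and 3 and DES 2. All libraries came from wild-type female BALB/C mice, an albino laboratory strain, that were 6 weeks old at the start and are listed at postnatal day 56. CON mice had water and no scopolamine. DES mice, a model of dry eye syndrome, had intraperitoneal scopolamine and water, and T.chuii mice had scopolamine and Tetraselmis chuii, a green microalga, at 300 mg/kg, for 2 weeks. Scopolamine blocks muscarinic receptors and so reduces tear secretion. There were 3 libraries in each labelled group from a study of 15 mice, and the labels do not say whether each library is a separate mouse, so p-values measure only the spread between libraries.

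The lens is a transparent tissue in the front of the eye, with an epithelial sheet over its anterior face and a mass of elongated fibre cells enclosed in a basement membrane, the capsule. Fibre cells fill with crystallins, the proteins that give the lens its refractive power, couple to each other through gap junctions, build a beaded intermediate filament found in no other tissue, and then lose their nuclei and organelles.

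The 6 crystallins held 0.0287%, 0.0201% and 0.0248% of reads in CON 1, 2 and 3 and 0.0408% in DES 2. They held 4.07% and 3.47% in DES 1 and DES 3 and 2.53%, 5.86% and 1.21% in T.chuii 1, 2 and 3. The values nearest the 1% line were T.chuii 3 above it and DES 2 below it, and the smallest lens-rich share was 29.7 times the largest lens-poor share. All 3 CON libraries were lens-poor and all 3 T.chuii libraries lens-rich, so lens content and label cannot be told apart between those groups, and DES held 2 lens-rich libraries and 1 lens-poor library. In a bulk tissue, fewer cells of a type and less RNA per cell cannot be told apart.

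Because the crystallins chose the classes, their own values are a description. Every gene in the tables had at least 1 read in every library, so genes without any read in a lens-poor library could not be seen, and alpha, beta and gamma crystallins other than these 6 were not analysed here. CPM here is the read count scaled to a fixed library size, with TMM factors between libraries. Reads of Cryaa, the alpha A crystallin gene, stood at 0.261, 12.7 and 0.268 CPM in CON 1 to 3 and 154 CPM in DES 2, against 28022 and 20138 CPM in DES 1 and DES 3 and 18715, 38281 and 8386 CPM in T.chuii 1 to 3. Crybb1, a beta crystallin of fibre cells, was at 0.285, 1.22 and 0.403 CPM in CON 1 to 3 and 10.2 CPM in DES 2, against 2304 and 1668 CPM in DES 1 and DES 3 and 948, 3847 and 312 CPM in T.chuii 1 to 3. CON 2 and DES 2 stood above CON 1 and CON 3 in both genes while remaining far below every lens-rich library. Cryab, a small heat shock protein also made in muscle, retina and other tissues, supplied 98.7%, 89.2% and 97.7% of the crystallin reads in CON 1 to 3, 46.6% in DES 2 and 11.7% to 20.1% in the lens-rich libraries. Without Cryab, the crystallin share was 0.00038% to 0.0218% in lens-poor and 0.991% to 5.10% in lens-rich libraries.

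**Figure D1:**
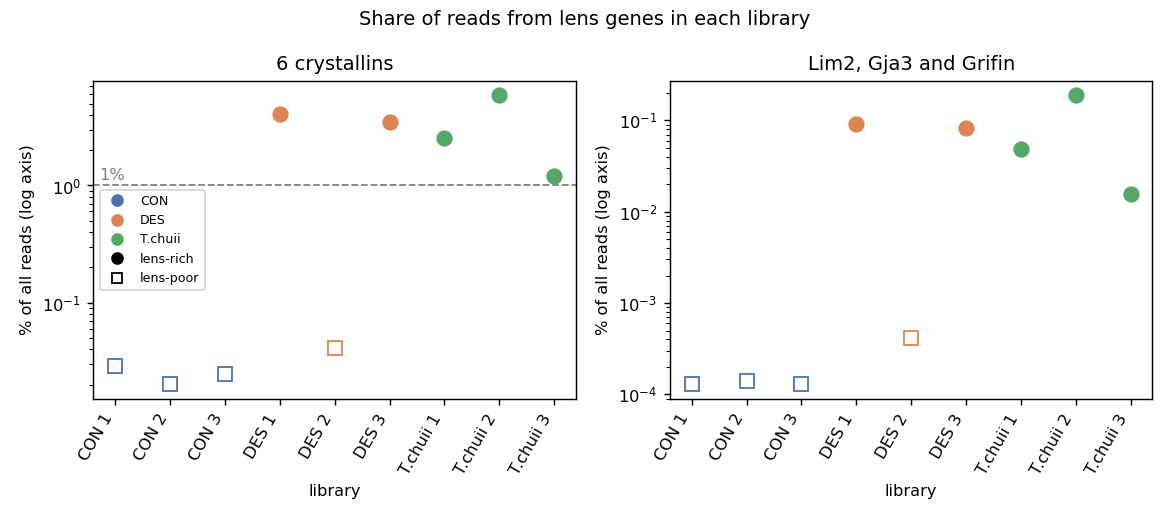
Percent of all reads, on log axes, in the 6 crystallins that made the classes (left) and in the fibre genes Lim2, Gja3 and Grifin, which did not (right), 1 point per library, coloured by label, filled for lens-rich and open for lens-poor libraries. The lens-rich libraries lie between 1.21% and 5.86% on the left and the lens-poor ones at or below 0.0408%, and the order of the 5 lens-rich libraries is the same on both sides. Lim2, Gja3 and Grifin are among the genes called higher in every lens-rich library, so the separation on the right follows from their choice.

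The upstream sequences of the alpha crystallin gene and of 3 fibre genes outside the rule are shown as examples of lens structural genes, because lens genes are known to be bound by MAF family factors. They were chosen after their values and motif matches were seen, and 3 of these 4 windows hold the core, more than among the named genes as a whole. Each is the 250 bases before the RefSeq transcription start in GRCm38.p6, 5′ to 3′ on the gene's strand, with the MAF core TGCTGA, on either strand, in capitals.
Cryaa (chr17:31677681-31677930, plus strand): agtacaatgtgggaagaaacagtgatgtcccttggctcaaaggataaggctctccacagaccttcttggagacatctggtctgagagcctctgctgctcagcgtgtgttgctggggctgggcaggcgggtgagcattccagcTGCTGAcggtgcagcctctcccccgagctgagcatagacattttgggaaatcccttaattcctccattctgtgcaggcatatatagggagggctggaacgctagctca
Lim2 (chr7:43429849-43430098, plus strand): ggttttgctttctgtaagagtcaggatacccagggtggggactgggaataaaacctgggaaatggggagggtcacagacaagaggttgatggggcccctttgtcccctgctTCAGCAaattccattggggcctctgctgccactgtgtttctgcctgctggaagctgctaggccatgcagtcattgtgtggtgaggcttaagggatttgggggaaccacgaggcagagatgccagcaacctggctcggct
Bfsp1 (chr2:143863174-143863423, minus strand): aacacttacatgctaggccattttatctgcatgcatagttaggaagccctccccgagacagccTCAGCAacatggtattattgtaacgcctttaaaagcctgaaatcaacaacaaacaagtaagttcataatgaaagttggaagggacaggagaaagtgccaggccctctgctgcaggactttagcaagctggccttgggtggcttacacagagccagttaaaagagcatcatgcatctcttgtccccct
Grifin (chr5:140565068-140565317, minus strand): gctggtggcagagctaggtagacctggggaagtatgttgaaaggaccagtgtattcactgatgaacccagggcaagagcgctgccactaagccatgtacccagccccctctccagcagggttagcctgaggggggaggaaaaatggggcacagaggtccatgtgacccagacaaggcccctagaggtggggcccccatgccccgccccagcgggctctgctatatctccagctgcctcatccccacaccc
The core begins 108 bases before the start in Cryaa, 139 in Lim2 and 187 in Bfsp1, and is not in the letters of the Grifin window. In RefSeq windows of 300 bases (250 before to 50 after the start), TGCTGA on either strand was found in 15 of the 69 genes with a window among the genes that were higher in lens-rich libraries, or 21.7%, and in 21.7% of all 27025 genes with a window. The heat shock element core TTCNNGAA was found in 9 of the same 69 genes, or 13.0%, and in 9.60% of all genes. Of the 16 genes with a window among the 20 higher genes of widest gap, 4 held TGCTGA, and R3hdml, Pitx3, Lix1, B3gnt5 and Rspo1, each with a wider gap than Bfsp1, did not. The share with the MAF core was the same among the 69 genes as in the whole table.

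Outside the crystallins, which other genes followed the lens was read from a rule of size and separation: a mean difference of at least 2-fold on the log2(CPM + 0.5) scale, with the lowest library of the higher class above the highest library of the lower class. Of 21287 genes tested, 103 were higher in lens-rich libraries by this rule (0.484%) and 4 were lower (0.0188%). The 103 comprised the 6 crystallins and 97 other genes, of which 69 were protein-coding, 18 long non-coding RNAs, 7 pseudogenes and 3 of other types. Of the 97, 36 differed by at least 4-fold and 11 by at least 16-fold. The median log2 difference over all tested genes was -0.04. No p-value is attached, since the classes come from measured values. At the 2-fold limit, Chpt1 and Pxmp2 lay just inside, with log2 differences of 1.00 and 1.02, and Plaat3 and Opn3 just outside at 0.99 and 0.98. The number higher was 245 without DES 3 and 159 without CON 1. The number lower was 12 without CON 1, 7 without DES 1, 2 without DES 2, 7 without DES 3, 9 without T.chuii 1 and 2 without T.chuii 3, and it was 20 without CON 2, DES 1 and T.chuii 1 together.

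Lim2 had the largest difference of the 97 genes and the widest gap of those named by gap. Lim2, which encodes an integral membrane protein of fibre junctions, was at 0.641, 0.534 and 0.688 CPM in CON 1 to 3 and 1.25 CPM in DES 2, against 556 and 523 CPM in DES 1 and DES 3 and 208, 1134 and 61.0 CPM in T.chuii 1 to 3. The log2 difference was 8.07, and the lowest lens-rich library was 48.9 times the highest lens-poor library. Lim2 lies on chromosome 7, 43430099 to 43435996 in GRCm38.p6. Gja3, encoding the fibre connexin 46, a gap junction protein, was at 0.261, 0.844 and 0.218 CPM in CON 1 to 3 and 0.556 CPM in DES 2, against 91.0 and 53.8 CPM in DES 1 and DES 3 and 55.8, 128 and 24.8 CPM in T.chuii 1 to 3. T.chuii 3 was its lowest and T.chuii 2 its highest lens-rich library, and the log2 difference between the classes was 6.04.

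Grifin, a galectin-related protein of the lens, was at 0.308, 0.189 and 0.319 CPM in CON 1 to 3 and 1.92 CPM in DES 2, against 288 and 316 CPM in DES 1 and DES 3 and 275, 552 and 63.3 CPM in T.chuii 1 to 3. DES 2 was above every CON library and below every lens-rich library. Together, Lim2, Gja3 and Grifin took 0.0156% to 0.187% of reads in the lens-rich and 0.000129% to 0.000415% in the lens-poor libraries. The crystallin rule did not use this share. Each of these genes was called for lying higher in every lens-rich library, so the separation of their sum follows from their choice. Lenep, named as a lens epithelial protein, was at 3.87, 3.44 and 2.90 CPM in CON 1 to 3 and 4.75 CPM in DES 2, against 279 and 303 CPM in DES 1 and DES 3 and 139, 715 and 26.5 CPM in T.chuii 1 to 3. T.chuii 3 lay far below the other lens-rich libraries for Lenep but above all lens-poor libraries.

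The beaded filament genes were also higher, from a higher floor. Bfsp1, encoding filensin, was at 3.63, 12.0 and 5.38 CPM in CON 1 to 3 and 3.61 CPM in DES 2, against 372 and 227 CPM in DES 1 and DES 3 and 109, 683 and 31.9 CPM in T.chuii 1 to 3. Bfsp2, encoding phakinin, the protein that filensin polymerises with, was at 17.3, 30.2 and 17.1 CPM in CON 1 to 3 and 14.9 CPM in DES 2, against 572 and 392 CPM in DES 1 and DES 3 and 238, 1063 and 68.8 CPM in T.chuii 1 to 3. Reads of both were present in every lens-poor library, with CON 2 the highest of these in each gene. On the length-corrected FPKM scale, the means of the authors' deposited values over lens-rich and lens-poor libraries were 107 and 2.49 for Bfsp1, 279 and 13.0 for Bfsp2, 506 and 0.907 for Lim2 and 414 and 1.25 for Grifin. Of the fibre list of membrane and cytoskeletal genes, 9 were tested. By the rule 5 were higher and none lower, beside 0.484% and 0.0188% of all tested genes. The lists were chosen with earlier results of these data known, so such counts are no test. The fibre list had a median log2 difference of 4.07. That median is the value of Bfsp2, at the edge between the called genes and the rest, and not a shift shared by the list. The other 4 were Tmod1, which caps actin filaments (19.5 to 66.8 CPM in the lens-rich and 16.6 to 21.0 CPM in the lens-poor libraries), Nrcam (31.9 to 81.8 CPM in the lens-rich and 21.4 to 40.2 CPM in the lens-poor libraries), and the ephrin system members Epha2 (10.1 to 17.6 CPM in the lens-rich and 8.05 to 28.2 CPM in the lens-poor libraries) and Efna5 (log2 difference -0.12). These genes are also used by neurons and epithelia, and their ranges overlapped between the classes.

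**Figure D2:**
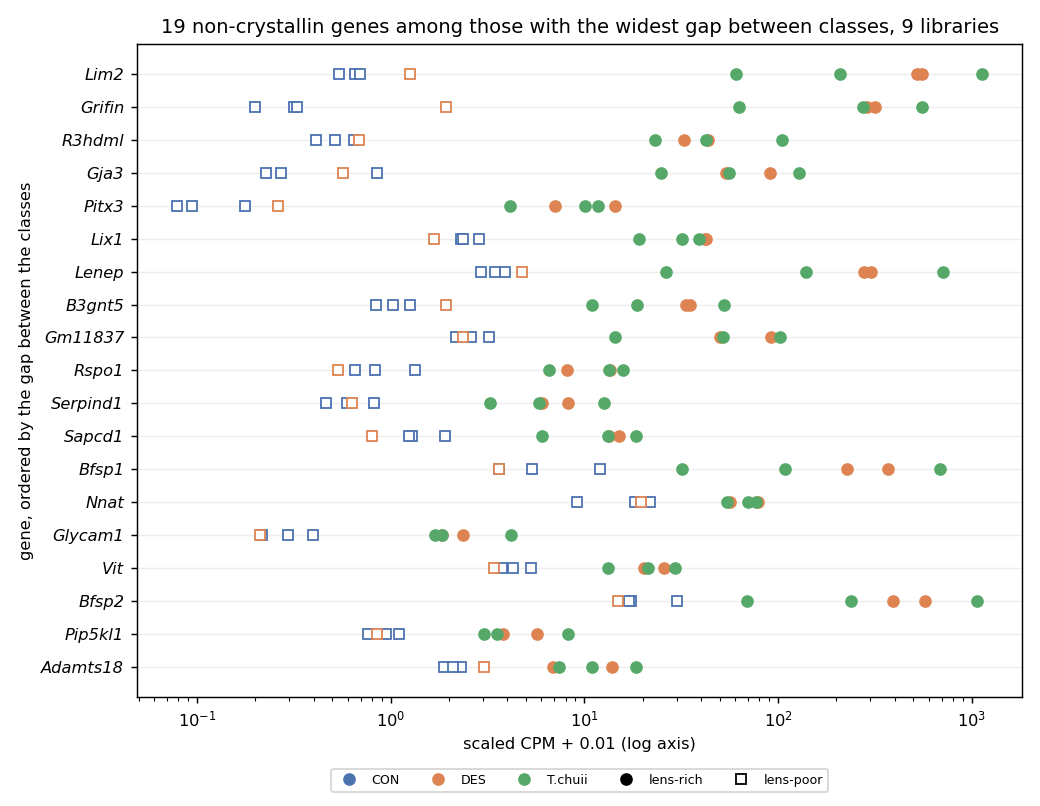
Scaled CPM plus 0.01, on a log axis, of 19 of the 20 protein-coding non-crystallin genes with the widest gap between the classes, 1 symbol per library, coloured by label, filled for lens-rich and open for lens-poor. Every filled symbol lies to the right of every open one, with Lim2 at 61.0 to 1134 CPM against 0.534 to 1.25 CPM at the top, and T.chuii 3 is the lowest filled symbol for most genes.

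Of 15 tested regulators of lens development, 3 were higher by the rule (Pitx3, Maf and Rbm24) and none lower. Of all tested genes, 0.484% were higher and 0.0188% lower. The list median was 0.44. Pitx3, a homeodomain factor whose loss causes the aphakia phenotype in mice, was at 0.166, 0.0689 and 0.0839 CPM in CON 1 to 3 and 0.253 CPM in DES 2, against 14.4 and 7.01 CPM in DES 1 and DES 3 and 10.0, 11.7 and 4.12 CPM in T.chuii 1 to 3. Its log2 difference was 3.85, and the lens-poor libraries held 4 to 15 reads. Maf, the factor that drives crystallin genes, was at 5.22, 2.91 and 4.75 CPM in CON 1 to 3 and 3.62 CPM in DES 2, against 10.7 and 10.9 CPM in DES 1 and DES 3 and 12.5, 15.1 and 8.06 CPM in T.chuii 1 to 3. Rbm24, an RNA-binding protein of lens and muscle, was at 14.2 to 42.2 CPM in the lens-rich and 9.43 to 11.8 CPM in the lens-poor libraries. Hsf4, the heat shock factor of the lens, was at 1.02 to 4.71 CPM in the lens-rich and 0.438 to 1.23 CPM in the lens-poor libraries, a log2 difference of 0.87 with overlap. Prox1, Sox2, Caprin2 and Gata3 had log2 differences of 0.44, 0.55, 0.51 and 0.47 and overlapped. Pax6, Six3, Mab21l1, Tdrd7, Celf1, Meis1 and Tfap2a lay between -0.31 and 0.10. Pax6, the master regulator of eye formation, was at 252 to 345 CPM in the lens-rich and 287 to 391 CPM in the lens-poor libraries. Several of these genes are also expressed in retina, ciliary body or corneal epithelium.

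Of 11 tested genes tied to the loss of organelles in fibres, 0 were higher or lower by the rule, beside 0.484% and 0.0188% of all tested genes, so a count of 0 says little about this list. Its median log2 difference was 0.12. Plaat3, a phospholipase that breaks down organelle membranes in the lens, came nearest, at 52.7, 61.1 and 54.5 CPM in CON 1 to 3 and 48.1 CPM in DES 2, against 105 and 114 CPM in DES 1 and DES 3 and 146, 133 and 61.3 CPM in T.chuii 1 to 3. Its classes did not overlap, but T.chuii 3 exceeded the highest lens-poor library only narrowly. The cyclin-dependent kinase inhibitor Cdkn1c, which accompanies cell cycle exit, had a log2 difference of 0.57, and Cdkn1b one of -0.08. The mitophagy receptors Bnip3, Bnip3l and Fundc1 had log2 differences of 0.22, 0.20 and 0.15. Alox15, Ubb, Atg5, Fyco1 and Chmp4b had log2 differences of -0.59, 0.09, 0.12, -0.15 and 0.04, and all overlapped.

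Of the capsule and basement membrane list, 2 of 16 tested genes were higher, beside 0.484% of all tested genes. The list median was 0.29. Col4a1, a chain of type IV collagen, was at 23.9, 24.9 and 14.5 CPM in CON 1 to 3 and 12.2 CPM in DES 2, against 77.1 and 37.9 CPM in DES 1 and DES 3 and 91.6, 86.3 and 43.0 CPM in T.chuii 1 to 3. Its divergently transcribed partner Col4a2 was at 16.9 to 55.8 CPM in the lens-rich and 10.4 to 19.5 CPM in the lens-poor libraries, a log2 difference of 1.40 with an overlap. Nid1, which links laminin to collagen IV, was at 30.1, 43.0 and 25.7 CPM in CON 1 to 3 and 22.4 CPM in DES 2, against 111 and 46.1 CPM in DES 1 and DES 3 and 96.0, 94.8 and 49.8 CPM in T.chuii 1 to 3. The remaining collagen IV chains tested, Col4a3 to Col4a6, had log2 differences of 0.17 to 0.43, and the lens laminin chain Lama1 had 0.33. DES 3 was the lowest lens-rich library for Col4a1, Col4a2 and Nid1, although its crystallin share was above those of T.chuii 1 and T.chuii 3.

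Of metabolic, antioxidant and growth factor genes that the lens is known to use, 0 were called in either direction. With 0.484% of all tested genes called higher and 0.0188% lower, a count of 0 says little about these genes. They numbered 19 with a median of 0.04 for metabolism, glutathione and taxon crystallins (enzymes that serve as lens crystallins in some animals) and 17 with a median of -0.09 for growth factor signalling. Slc7a11, the cystine transporter that feeds glutathione synthesis, was at 7.73 to 13.6 CPM in the lens-rich and 4.53 to 6.87 CPM in the lens-poor libraries, a difference of 0.83 with no overlap but under 2-fold. The taxon crystallin genes Cryz, Cryzl1, Cryl1 and Crym had log2 differences of 0.0075, 0.08, -0.33 and 0.07. Aldh1a1, a corneal and lens dehydrogenase, had 0.66 with overlap. The FGF receptors Fgfr1, Fgfr2 and Fgfr3 had log2 differences of 0.15, 0.02 and -0.09. Among 14 small heat shock proteins and chaperones, Hspb2 alone met the rule, at 4.80 to 17.1 CPM in the lens-rich and 3.08 to 3.81 CPM in the lens-poor libraries. Hspb2 lies next to Cryab and overlaps it in the annotation, so its reads cannot be cleanly told from those of Cryab. It was the only one of 18 tested genes within 50 kb of a rule crystallin to be called, the others including Cbs and U2af1 near Cryaa and Tpst2 near Crybb1.

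Beyond the listed lens genes, the widest gaps belonged to genes less often named in the lens. R3hdml, a secreted protein with a cysteine-rich domain, was at 0.403, 0.637 and 0.503 CPM in CON 1 to 3 and 0.674 CPM in DES 2, against 43.4 and 32.7 CPM in DES 1 and DES 3 and 105, 42.3 and 23.1 CPM in T.chuii 1 to 3. T.chuii 1 was its highest library, with more than 2 times the level of any other. Lix1 was at 2.85, 2.29 and 2.35 CPM in CON 1 to 3 and 1.67 CPM in DES 2, against 42.0 and 42.6 CPM in DES 1 and DES 3 and 39.1, 31.8 and 19.2 CPM in T.chuii 1 to 3. B3gnt5, the glycosyltransferase that starts the lacto-series glycolipids, was at 1.02, 0.827 and 1.24 CPM in CON 1 to 3 and 1.92 CPM in DES 2, against 33.6 and 35.2 CPM in DES 1 and DES 3 and 18.6, 52.8 and 11.0 CPM in T.chuii 1 to 3. The annotated gene Gm11837, which overlaps Necab1, was at 3.20, 2.17 and 2.60 CPM in CON 1 to 3 and 2.34 CPM in DES 2, against 50.3 and 92.4 CPM in DES 1 and DES 3 and 52.1, 103 and 14.4 CPM in T.chuii 1 to 3. Rspo1, a secreted enhancer of Wnt signalling, was at 0.641, 1.33 and 0.822 CPM in CON 1 to 3 and 0.522 CPM in DES 2, against 13.5 and 8.14 CPM in DES 1 and DES 3 and 13.4, 15.9 and 6.58 CPM in T.chuii 1 to 3. In each of these genes the highest lens-poor library was below the lowest lens-rich library by a factor of at least 4.50.

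Smaller separations were seen in a wider set. Serpind1, encoding heparin cofactor II, ranged over 3.23 to 12.5 CPM in the lens-rich and 0.451 to 0.805 CPM in the lens-poor libraries. Sapcd1 ranged over 6.05 to 18.5 CPM in the lens-rich and 0.792 to 1.90 CPM in the lens-poor libraries, and the neuronatin gene Nnat over 54.6 to 78.4 CPM in the lens-rich and 9.11 to 21.7 CPM in the lens-poor libraries. Vit, a matrix protein first described in the vitreous, ranged over 13.2 to 29.2 CPM in the lens-rich and 3.40 to 5.27 CPM in the lens-poor libraries. Pip5kl1 and Adamts18, the latter a secreted metalloprotease whose loss affects eye development, had log2 differences of 1.85 and 2.01. Glycam1, a mucin-like glycoprotein, was low in all libraries, at 1.68 to 4.19 CPM in the lens-rich and 0.202 to 0.386 CPM in the lens-poor libraries. Its log2 difference of 1.84 was 0.92 with a pseudocount of 2 CPM, under the 2-fold limit, and 2.69 with 0.1 CPM.

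Among called genes with many reads in every library, Fabp5, a fatty acid binding protein, was at 75.8, 103 and 105 CPM in CON 1 to 3 and 59.6 CPM in DES 2, against 1022 and 1315 CPM in DES 1 and DES 3 and 740.3, 2276 and 174 CPM in T.chuii 1 to 3. The pseudogene Gm6166 followed it, at 25.1, 27.2 and 31.2 CPM in CON 1 to 3 and 17.4 CPM in DES 2, against 279.8 and 369 CPM in DES 1 and DES 3 and 218, 634 and 49.1 CPM in T.chuii 1 to 3, and the counts could split reads between near-identical copies, so both are uncertain. Igfbp7, a secreted binding protein of insulin-like growth factors, was at 225, 238 and 205 CPM in CON 1 to 3 and 131 CPM in DES 2, against 756 and 464 CPM in DES 1 and DES 3 and 1034, 833 and 413 CPM in T.chuii 1 to 3. Vim, the vimentin of lens, glia and fibroblasts, was at 194 to 391 CPM in the lens-rich and 104 to 153 CPM in the lens-poor libraries. Ces5a and Tcp11 were steep: Ces5a was at 1.42, 2.70 and 2.11 CPM in CON 1 to 3 and 1.38 CPM in DES 2, against 33.5 and 37.9 CPM in DES 1 and DES 3 and 12.9, 75.5 and 2.72 CPM in T.chuii 1 to 3, and Tcp11 at 5.53, 4.03 and 5.47 CPM in CON 1 to 3 and 6.71 CPM in DES 2, against 67.3 and 60.7 CPM in DES 1 and DES 3 and 27.8, 163 and 10.3 CPM in T.chuii 1 to 3. For Ces5a, T.chuii 3 and CON 2 were nearly level. Sall1, Inhba, Npl, S100a4, Fas and Gstm1 had log2 differences of 1.44, 1.68, 1.49, 2.19, 1.47 and 1.17. Gstm1 belongs to a family of near-identical copies, and the called pseudogene Gstm2-ps1 had 1.11.

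The 97 genes held 18 long non-coding RNAs. The share of such RNAs among all tested genes was not counted, so this number is no result about them. Gm30158, on chromosome 11, 111511654 to 111512457, was at 0.190, 0.0517 and 0.0503 CPM in CON 1 to 3 and 0.219 CPM in DES 2, against 55.3 and 73.8 CPM in DES 1 and DES 3 and 20.6, 148 and 4.99 CPM in T.chuii 1 to 3. The lens-poor libraries held 3 to 13 reads of it. 7530428D23Rik was at 1.19, 0.155 and 0.738 CPM in CON 1 to 3 and 0.522 CPM in DES 2, against 14.3 and 20.1 CPM in DES 1 and DES 3 and 30.1, 24.0 and 9.98 CPM in T.chuii 1 to 3. Sox2ot, which overlaps Sox2, had a log2 difference of 2.16 and was at 12.3 to 22.8 CPM in the lens-rich and 2.93 to 4.68 CPM in the lens-poor libraries, while Sox2 itself was not called. LOC102632463, which overlaps Prox1, had 2.71, while Prox1 was not called. The library kit keeps strand, but nothing used here states whether counting did, so overlapping genes may share reads.

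Inside the lens-rich class the members did not all follow lens content to the same degree. Between T.chuii 2, with the highest crystallin share, and T.chuii 3, with the lowest, the crystallin share differed 4.83-fold, while the median ratio over all tested genes was 1.005. The ratio was 27.0 for Lenep, 21.4 for Bfsp1, 18.6 for Lim2, 15.5 for Bfsp2 and 12.3 for Crybb1, all steeper than the crystallin sum. The ratio also exceeded that of the sum for Gm30158, Ces5a, Tcp11, Fabp5 and Gm6166, so it did not single out the listed lens genes. It was 4.57 for Cryaa, 5.16 for Gja3 and 4.80 for B3gnt5, near that of the sum. It was 2.84 for Pitx3, 2.41 for Rspo1, 2.01 for Col4a1, 1.87 for Maf, 1.83 for R3hdml, 1.65 for Lix1 and 1.42 for Nnat. These ratios compare a pair of libraries and carry no replicate error.

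Of the 97 genes, 53 were highest in T.chuii 2 (54.6%, against 19.4% of all tested genes), 31 in T.chuii 1, 8 in DES 1, 5 in DES 3 and 0 in T.chuii 3. Their lowest lens-rich library was T.chuii 3 in 65 genes (67.0%, against 16.1% of all tested genes) and DES 3 in 26. Non-overlap sets the lowest library only against the lens-poor class, so this order within the class is a description beside the crystallin shares. DES 2, the lens-poor library of the scopolamine group, was above all CON libraries in 25 of the 97 genes and below all of them in 28, against 22.5% and 23.1% of all tested genes. Of the 6 crystallins, 4 were higher in DES 2 than in every CON library.

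**Figure D3:**
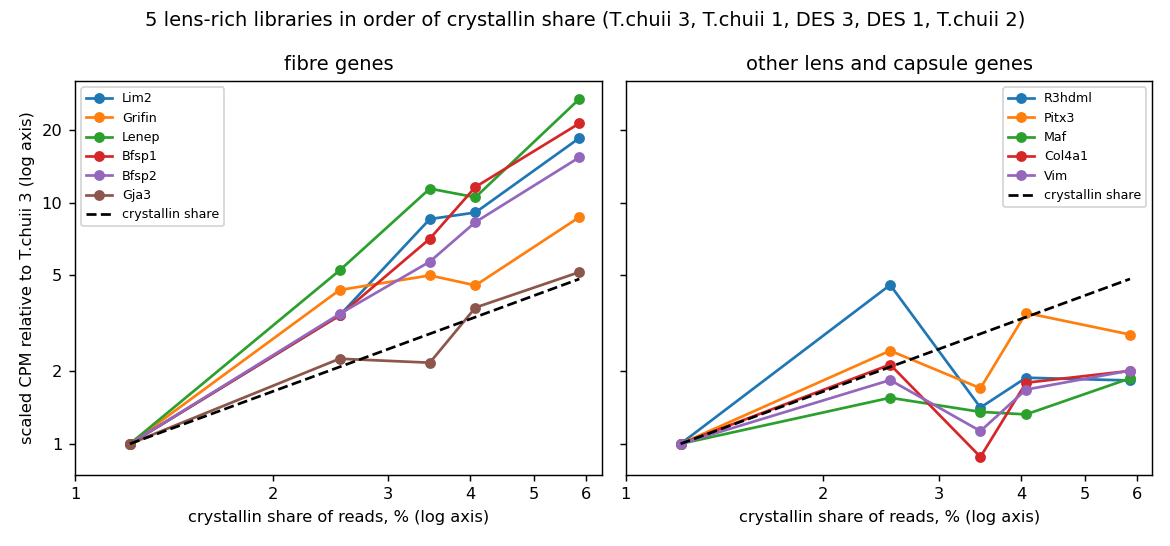
Scaled CPM relative to T.chuii 3 (log axis) against the crystallin share of reads (log axis) in the 5 lens-rich libraries, with the crystallin share itself as a dashed line. Lenep, Bfsp1, Lim2 and Bfsp2 climb to between 15.5 and 27.0 times T.chuii 3 in T.chuii 2, above the dashed line, while R3hdml, Maf, Col4a1 and Vim are between 1.83 and 2.01 times there and Col4a1 is below T.chuii 3 in DES 3.

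Genes of other eye tissues were examined because the classes could differ in more than the lens. Calls in their lists stand beside 0.484% of all tested genes called higher and 0.0188% lower. All 18 fast skeletal muscle genes had a positive difference, with a median of 1.79, and 1 (Pgam2) was called. Their summed share was 0.191% to 1.89% of reads in lens-rich and 0.0963% to 0.328% in lens-poor libraries. Pgam2 was at 71.3, 19.0 and 43.4 CPM in CON 1 to 3 and 70.0 CPM in DES 2, against 285 and 76.3 CPM in DES 1 and DES 3 and 516, 334 and 91.4 CPM in T.chuii 1 to 3, highest in T.chuii 1. All 4 adipocyte genes had a positive difference, with a median of 2.82, and Fabp4 was called, at 22.9, 3.39 and 15.7 CPM in CON 1 to 3 and 10.4 CPM in DES 2, against 36.6 and 34.1 CPM in DES 1 and DES 3 and 954, 181 and 61.0 CPM in T.chuii 1 to 3. Their summed share was 0.00404% to 0.143% in lens-rich and 0.000571% to 0.0035% in lens-poor libraries. Called genes known from striated muscle, Csrp3, Ankrd2 and Asb11, were also highest in T.chuii 1, so membership of the 97 does not make a gene a lens gene. The part of muscle and fat in these genes was not tested.

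Corneal genes leaned the other way. None of 13 corneal epithelial genes had a positive difference, the median was -0.39 and 0 were called, with a summed share of 1.42% to 5.05% in lens-rich and 2.61% to 7.95% in lens-poor libraries. The 7.95% was CON 2 alone, against 3.07%, 3.74% and 2.61% in CON 1, CON 3 and DES 2. Lens-rich DES 1 (5.05%) and T.chuii 1 (4.45%) lay above those, so the share did not follow the classes. Krt12, the keratin of the corneal epithelium, was at 3997 to 21142 CPM in the lens-rich and 7792 to 33865 CPM in the lens-poor libraries. The median was -0.42 for 15 genes of corneal stroma and sclera and -0.47 for 8 of conjunctiva and skin, with 0 called in each. Photoreceptor genes were present in all libraries: 19 rod genes had a median of -0.29 and a summed share of 0.909% to 3.80% against 1.62% to 4.38%, and 10 cone genes a median of -0.12, with 0 called in either list. In the Muller glia list of 10, Vim was called, and the median was 0.13. Pigment epithelium (11 genes, 0.19), vitreous and ciliary body (10 genes, 0.13), macrophages and microglia (13 genes, 0.22) and cell cycle (14 genes, -0.14) had 0 called each. With 0.484% of all tested genes called higher and 0.0188% lower, counts of 0 in lists of this size say little. Blood genes had a median of 0.85 over 5 and 0 called, with T.chuii 1 the highest library. All 13 mitochondrially encoded genes had a positive difference, with a median of 0.94, and 0 were called, CON 2 having the lowest summed share, 0.777%, against 2.04% to 3.68% in the other libraries. With the other scalings and the deposited FPKM, the signs of the fibre, muscle, adipocyte, blood, corneal, stromal, conjunctival and mitochondrial medians were the same, and the medians of the organelle loss, metabolism, chaperone and Muller glia lists lay between -0.11 and 0.13 and changed sign.

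**Figure D4:**
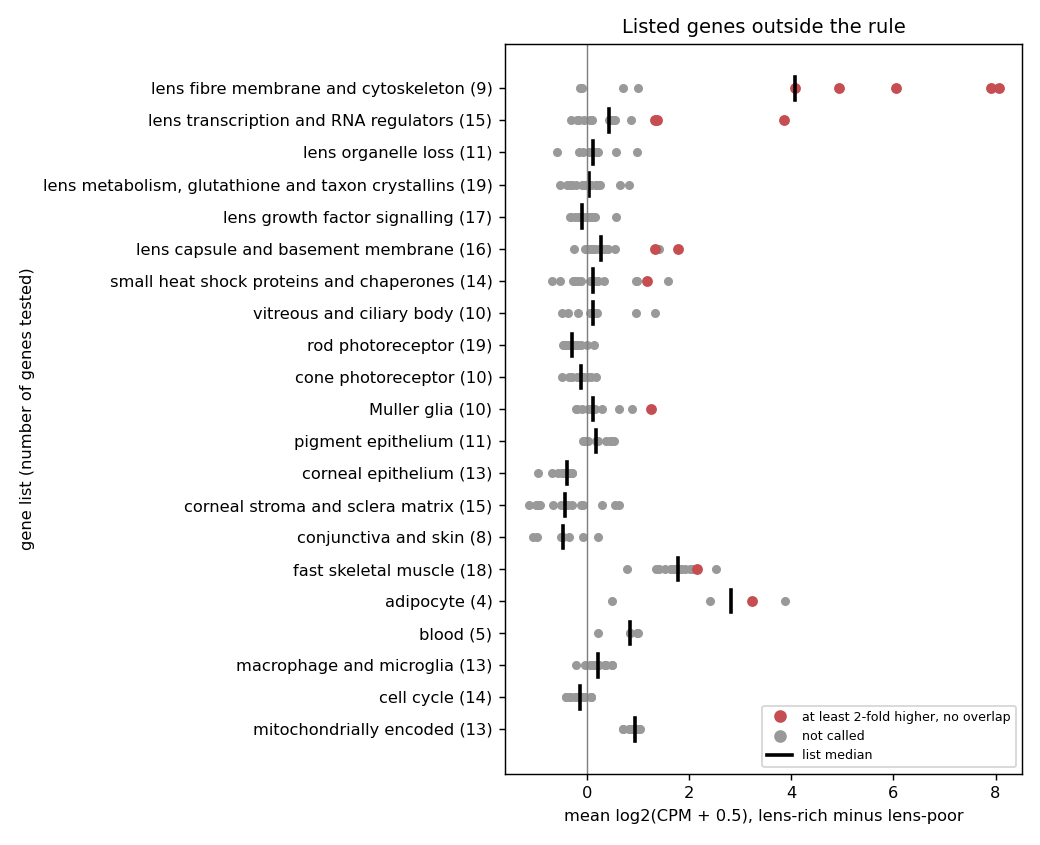
Mean log2(CPM + 0.5) in lens-rich minus lens-poor libraries for each tested gene of the fixed lists, red where the gene met the 2-fold rule without overlap, with the list median as a black bar and the number of tested genes in brackets. The fibre list stands at a median of 4.07, muscle at 1.79 and adipocyte genes at 2.82, while corneal, stromal and conjunctival lists lie below 0.

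In the other direction the separation was small. Krt17, a keratin of stressed and hair follicle epithelium, was at 69.4, 135 and 77.2 CPM in CON 1 to 3 and 165 CPM in DES 2, against 14.9 and 66.6 CPM in DES 1 and DES 3 and 22.4, 32.3 and 21.0 CPM in T.chuii 1 to 3. DES 3 was only just below CON 1. Osr2, a zinc finger factor of eyelid and craniofacial mesenchyme, was at 20.7, 30.9 and 29.4 CPM in CON 1 to 3 and 40.7 CPM in DES 2, against 14.6 and 14.3 CPM in DES 1 and DES 3 and 13.7, 18.0 and 11.5 CPM in T.chuii 1 to 3. Lgals7, a galectin of stratified epithelium, and the potassium channel gene Kcnj15 had log2 differences of -1.06 and -1.04. Of the 10 protein-coding genes with the widest gap downwards, Osr2 was the only one of at least 2-fold. The others were Bcl11b, Atg16l1, Padi1, Sufu, Lratd2, Six2, Dclk3, Rcor2 and Btbd11, with log2 differences of -0.70 to -0.47.

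By label, the study asks how scopolamine changes the eyeball transcriptome and how Tetraselmis chuii modifies it. These tests used limma-voom with Benjamini-Hochberg adjustment, two-sided, in a single fit of the 9 libraries. With all libraries, 0 of 21287 genes (0%) passed an adjusted p of 0.05 in DES against CON, in T.chuii against CON and in T.chuii against DES. The genes with an unadjusted p under 0.05 numbered 235, 912 and 233, and limma-trend on log2(FPKM + 0.1) also called 0, with 294, 1083 and 267. Many of 21287 tested genes pass an unadjusted limit by chance, so such counts are not read as changes. Lim2 had a log2 fold change of 6.86 ± 2.84 (SE) in DES against CON and 8.61 ± 2.88 (SE) in T.chuii against CON. Grifin had 7.67 ± 2.55 (SE) and 9.61 ± 2.58 (SE). In both genes DES 2 lay far below DES 1 and DES 3.

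Leaving out DES 2 changed the calls. In DES against CON, 15 of 21115 genes (0.071%) were then called, all higher, and in T.chuii against CON 17 (0.0805%), all higher, by limma-voom. All of them were among the 103 genes higher in lens-rich libraries. That overlap is favoured in advance, since without DES 2 these fits set lens-rich against lens-poor libraries. The 14 genes called in both included the 6 crystallins, Gja3, Grifin, Lim2, Lix1, Pitx3, R3hdml and the pseudogene Gm11578, which was at 2.87 to 7.59 CPM in the lens-rich and 0.258 to 0.369 CPM in the lens-poor libraries. B3gnt5 was called in DES against CON alone, and Rspo1 and the non-coding 7530428D23Rik and 2310043M15Rik in T.chuii against CON alone. Both comparisons share the CON libraries, and whether they differ for those genes was not tested. With DES 2 set aside, label and lens class coincide in them and cannot be told apart, so these p-values are not independent of the rule. In DES against CON the log2 fold change was 7.54 ± 0.86 (SE) for Gja3 (limma-voom, adjusted p = 0.015), 10.13 ± 1.01 (SE) for Grifin (adjusted p = 0.0075) and 9.77 ± 1.22 (SE) for Lim2 (adjusted p = 0.028). In T.chuii against CON it was 7.25 ± 0.82 (SE) for Gja3 (limma-voom, adjusted p = 0.014), 6.21 ± 0.64 (SE) for Pitx3 (adjusted p = 0.0086) and 8.66 ± 1.13 (SE) for Lim2 (adjusted p = 0.034). Over the other 15 fits, the adjusted p-values of these 4 genes were 0.998 to 1.0 in DES against CON and 0.178 to 1.0 in T.chuii against CON. In every CON library Pitx3 lay below the filter limit of 10 reads per median-sized library. Without DES 2 it was therefore kept only through the lens-rich libraries, and its p-value adds no support. Grifin and 7530428D23Rik lay below that limit in CON 2. Without DES 2 they too needed a lens-rich library to be kept, so their p-values add no support either. Not all lens genes passed: Lenep, Bfsp1 and Bfsp2 had adjusted p-values of 0.29, 0.43 and 0.34 in DES against CON by limma-voom.

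Between T.chuii and DES without DES 2, every library was lens-rich, and 0 of 21115 genes (0%) were called, with 194 at an unadjusted p under 0.05. The median log2 fold change of the 97 genes was 0.03 there, and 51 of them were positive. The median over all tested genes was 0.0013. With DES 2 included the median of the 97 was 0.80, against -0.03 over all tested genes, a direction that the choice of genes favours, since DES 2 had to lie below every lens-rich library. In the lens-rich comparison Lim2 had a log2 fold change of -1.11 ± 0.94 (SE), Grifin -0.47 ± 0.71 (SE), Gja3 -0.29 ± 0.59 (SE), Pitx3 -0.38 ± 0.50 (SE) and Lenep -1.04 ± 1.04 (SE). Standard errors of this size, from 3 libraries against 2, do not show that the levels were equal.

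**Figure D5:**
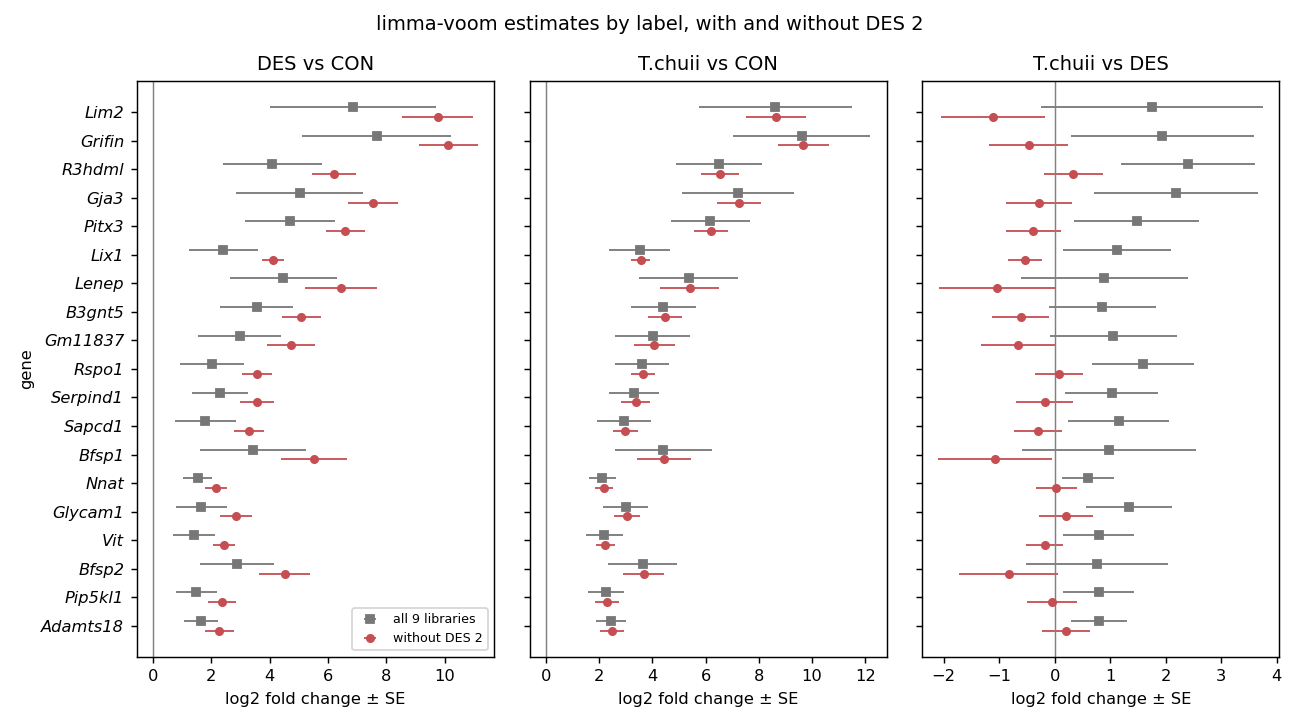
Log2 fold change with its standard error (bars) from limma-voom for the same 19 genes in the comparisons by label, grey squares with all 9 libraries and red circles without DES 2. The red estimates lie far to the right of 0 in DES and T.chuii against CON, and between -1.11 and 0.34 in T.chuii against DES, where the grey ones are all above 0, a direction favoured by choosing genes with DES 2 in the low class.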

How the data were processed

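RNA of whole eyeballs was sequenced from stranded mRNA libraries, per the labels' protocols, and the submitters' processing notes name StringTie 2.1.3b, the aligners HISAT2 2.1.0 and Bowtie2 2.3.4.1, the trimmer Trimmomatic 0.38 and the quality check FastQC 0.11.7, with the mm10 build, without saying which settings or strand options were used. The deposited tables give, per the file headers, a read count and an FPKM value for each of 22587 genes in each library, and the count was read from the last cell of each row. Libraries held 39098480 to 64574545 counted reads.

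Members and lists were chosen with earlier results of these data known. Libraries were classed by the crystallin share of counts. The 95% counting intervals of that share (Wilson) were narrow, for example 1.209% to 1.215% in T.chuii 3 and 0.0402% to 0.0413% in DES 2, and cover counting error only, since reads without molecular identifiers are not independent molecules. Genes were kept with at least 10 reads per median-sized library in 3 libraries and 15 reads in all, which left 21287. Counts were scaled by TMM, and differences are between class means of log2(CPM + 0.5). Genes were named by rule: the 20 higher and 10 lower protein-coding genes, of at least 1 CPM in the higher class, with the widest gap; all genes of the fibre, regulator and organelle loss lists; genes within 50 kb of a rule crystallin; at most 4 examples of other lists; and any limma call. Some genes that enter the fits and counts are not reported here by name, and these were taken out of the lists. Further genes met the 2-fold rule and were chosen after their values were seen. Their coordinates and promoter windows are from RefSeq, GRCm38.p6.

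Comparisons by label used limma-voom (limma 3.58.1, R 4.3.3; 6 residual degrees of freedom). Count models first planned were left out, since the count stands at a varying position in the rows and could not be declared as a count column. The plan kept limma-voom as the main test in that case. It was run on the same values, read from the last cell of each row. The fit and the class rule were tested on simulated counts. Other steps used Python 3.11.15 with pandas 2.3.3, numpy 2.4.6 and scipy 1.17.1, and matplotlib 3.10.9 for plots. Alternatives were other scalings, pseudocounts, filters and folds, the deposited FPKM, limma-trend, a replicate block and each library left out in turn. The replicate numbers in the titles differ from the numbers in the file headers. Same-numbered DES and T.chuii libraries deviated together from their group means (correlations of 0.63, 0.41 and 0.20 over genes), and those with CON gave -0.42 to 0.34. With all 9 libraries, the fits with and without the block called 0 genes, and the block was not run without DES 2.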

Additional observations from a re-analysis of the deposited data

Results flagged for a closer look

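A library was singled out where its distance to the nearest other library of its class, divided by the range of the class on the log2 scale, exceeded Dixon's 95% critical value. In 66 class and item combinations 5 were found, and chance gives about 1 in 20. The share of reads in Lim2, Gja3 and Grifin in DES 2 was 0.000415%, above the 3 CON libraries, and Grifin alone was 1.92 CPM in DES 2, the highest of the lens-poor class. Atg16l1, an autophagy gene, was 46.9 CPM in T.chuii 1, below the other lens-rich libraries. Dclk3 was 0.624 CPM in T.chuii 3, the lowest lens-rich value, and Rcor2 was 2.87 CPM in CON 1, the highest lens-poor value.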

How the results depend on the processing

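Of the 103 genes higher in lens-rich libraries, 88 were called with total-read scaling, 95 with the total without the crystallins, 101 with the median of ratios and 68 with deposited FPKM, which called 69 in all. Their number was 67 with a pseudocount of 2 CPM, 198 at 1.5-fold and 42 at 4-fold, and leaving out each library gave 95 to 245. The number of genes lower, which was 4, was 1 with a pseudocount of 2 CPM, 17 at 1.5-fold, 0 at 4-fold and 20 without CON 2, DES 1 and T.chuii 1 together, and leaving out each library gave 2 to 12. The fibre list median of 4.07 was 3.97 with a pseudocount of 2 CPM and 3.91 with deposited FPKM, and leaving out each library gave 3.68 to 4.64. In each of these settings it was the value of Bfsp2, so its stability is that of 1 gene in a split list. The cause of these shifts was not tested. The 29 genes named by gap gave 464 values under these alternatives, all with the sign of the main value, and 31 of them moved by more than the spread within classes. In the fits by label, leaving out each library gave 0 to 15 calls in DES against CON, 0 to 17 in T.chuii against CON and 0 in T.chuii against DES, and the calls came only without DES 2. With a replicate block, limma-voom called 0 genes in each comparison, with 355, 983 and 415 genes at an unadjusted p under 0.05. Other count tests were left out, since the counts could not be declared as a column, although limma-voom used the same values. Depth limits genes near 0 in lens-poor libraries: Pitx3 rests there on 4 to 15 reads.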
